A study of Mus musculus with 13 samples.

Results

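A set of 10 genes that mark the endothelial cells of brain vessels was followed across the hippocampus of Kmt2d+/βGeo and wild-type mice. The genes are Emcn, Cldn5, Pecam1, Flt1, Kdr, Tek, Tie1, Slco1a4, Abcb1a and Esam. Each has 1 probe set that the platform annotation gives to it alone, so 10 of the 35556 probe sets of the table were read, on all 13 arrays. All mice are of the C57BL/6J strain, aged 1 to 2 months and fed standard chow. The groups were 3 Kmt2d+/βGeo and 3 wild-type mice of experiment 2, which received 3 injections of saline a day, and 3 Kmt2d+/βGeo and 4 wild-type mice of experiment 1, which received none. The labels give every mouse as female apart from the third wild-type mouse of experiment 1, for which they give unknown. RNA was extracted with TRIzol and a spin column in experiment 2 and with a Qiagen RNeasy kit in experiment 1. The βGeo allele is a gene trap of Kmt2d, which encodes a methyltransferase of histone H3. In humans, heterozygous loss of KMT2D causes Kabuki syndrome. Each sample was on its own array of the Affymetrix Mouse Gene 1.0 ST design and is taken here as a separate mouse. Precision depends on the number of samples and on the spread between them.

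Endothelial cells line the capillaries of the brain and are sealed by tight junctions, so that solutes pass only through selective transporters and receptors. VEGF and angiopoietin receptors on these cells govern vessel growth and stability, and signals of the Wnt and norrin pathways keep the barrier program active. In whole hippocampus, endothelial cells are a small share of all cells beside neurons and glia. Their markers are read here in bulk tissue, where fewer cells of a type and less RNA per cell cannot be told apart.

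The start regions of Emcn, which fell most between the experiments, and of Cldn5 and Tie1, the 2 called higher in experiment 2 with the values as deposited (Tie1 not with arrays centred on their medians), are shown first, 150 bases up to the annotated start, from RefSeq (GRCm38.p6), read 5′ to 3′ on the strand of the gene. Capitals mark GGAA, the core letters bound by ETS factors, on either strand (TTCC is the same motif on the other strand). Emcn lies on the plus strand, chr3:137340928-137341077. Cldn5 lies on the plus strand, chr16:18776697-18776846. Tie1 lies on the minus strand, chr4:118489850-118489999.
Emcn: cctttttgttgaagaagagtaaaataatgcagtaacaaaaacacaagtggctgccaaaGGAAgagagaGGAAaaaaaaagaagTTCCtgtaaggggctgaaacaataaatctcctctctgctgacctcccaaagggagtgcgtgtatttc
Cldn5: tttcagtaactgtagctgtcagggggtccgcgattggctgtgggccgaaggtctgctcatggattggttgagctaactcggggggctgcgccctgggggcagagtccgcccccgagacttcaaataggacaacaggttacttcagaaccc
Tie1: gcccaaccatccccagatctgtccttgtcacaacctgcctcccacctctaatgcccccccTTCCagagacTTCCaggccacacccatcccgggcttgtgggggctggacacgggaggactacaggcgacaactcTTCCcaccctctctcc

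Of the 10 genes, 8 matched the promoter table, which runs from 250 bases before to 50 bases after the start. GGAA was found on either strand in 7 of these 8, against 96.0% of all 32851 promoters of that length. Tie1 held it 9 times, Emcn 6 times, Kdr, Abcb1a and Slco1a4 5 times each, Flt1 4 times and Tek 2 times, against a median of 3 over all promoters. The letters are not in the window of Cldn5. The longer form CAGGAA, which contains GGAA, was in 3 of the 8 (Emcn, Tek and Tie1) and in 30.6% of all promoters. The form CCGGAA was in 1, Kdr, and in 14.9% of all promoters. The TATA sequence TATAAA was in 1, Flt1, and in 13.6% of all. The dinucleotide CG was counted 29 times in Flt1, 19 in Kdr and 12 in Cldn5, against a median of 7 over all promoters. It was counted 7 times in Tie1, 3 in Tek, 2 in Emcn and in Abcb1a, and 1 time in Slco1a4. A match of letters describes the window and names no binding site.

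On the log2 scale of the deposited values, the median over all probe sets of an array lay between 7.04 and 7.08 for experiment 2 and between 6.74 and 6.90 for experiment 1. Neuron markers had a mean of 11.26 to 11.39 on the arrays of experiment 2 and 12.11 to 12.18 on those of experiment 1. Of the 10 endothelial probe sets, 8 were above the median of their array on all 13 arrays. Tek was above it on 4 of the 6 arrays of experiment 2 and on all 7 of experiment 1. Emcn was above it on 0 of the 6 arrays of experiment 2 and on all 7 of experiment 1. Choroid plexus markers varied most between arrays of 1 group, with a mean of 7.09 to 8.55 in wild-type mice of experiment 2 and 8.25 to 9.65 in wild-type mice of experiment 1. Saline injection and RNA extraction both differ between the experiments, as may array processing, and their parts cannot be told apart.

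The first comparison asked whether the genotypes differ in their endothelial genes over both experiments. No gene of the 10 passed the threshold, an adjusted p of 0.05. The test was limma with experiment as a term, adjusted by the Benjamini-Hochberg method over all 35556 probe sets, of which 0% passed (1613 had an unadjusted p under 0.05). Of the 10 genes, 0 had an unadjusted limma p under 0.05 and 0 an exact permutation p under 0.05, the smallest exact permutation p being 0.151. Differences of heterozygous minus wild-type mice were -0.06 to 0.18 log2 units, with standard errors (SE) of 0.064 to 0.122. The median of the 10 was 0.08, against 0.003 over all probe sets, and 7 of 10 were above 0, against 51.3% of all probe sets. That median was not stable. It was 0.01, the same as over all probe sets, with wild-type replicates 2 and 3 of experiment 1 and heterozygous replicate 3 of experiment 2 left out, 3 arrays that stood apart in earlier results, and it was 0.03 with array weights. The absence of an unadjusted limma p under 0.05 also depended on the arrays, the lowest of the 10 being 0.0056 without those 3 arrays, 0.0361 with array weights and 0.0461 with the replicate block. Leaving out 1 mouse brought it to 0.0412 (heterozygous replicate 1 of experiment 2), 0.044 (heterozygous replicate 3 of experiment 2), 0.0412 (wild-type replicate 1 of experiment 2), 0.0284 (wild-type replicate 3 of experiment 1) or 0.0359 (wild-type replicate 4 of experiment 1). The lowest adjusted limma p of the 10 in any alternative run was 0.683. The 95% intervals of the 10 differences ran from -0.25 at the lowest to 0.44 at the highest, so the widest reached a 1.36-fold difference. Differences inside these intervals remain compatible with the values of the 6 and 7 mice. The intervals set no limit of detection, so larger differences could also have missed the threshold.

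**Figure D1:**
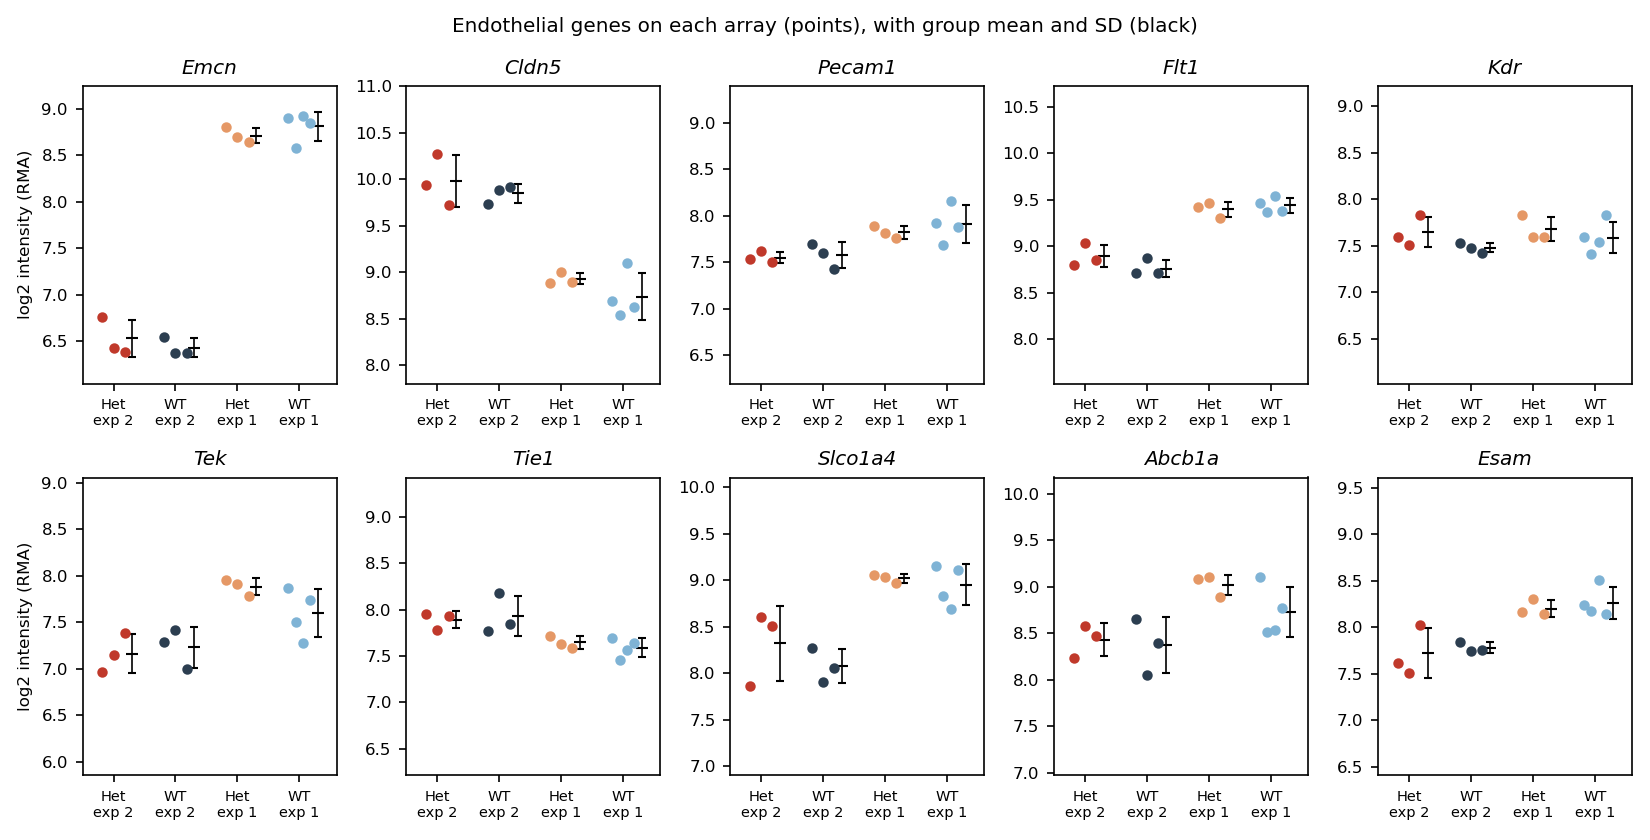
Log2 intensity (y axis, RMA values) of each endothelial gene on every array, as points, by group (x axis, Het for Kmt2d+/βGeo and WT for wild-type mice), with the group mean and SD in black. Each panel spans the same number of log2 units around its own centre. Within each experiment the points of heterozygous and wild-type mice overlap for all 10 genes, and Emcn and Cldn5 separate the experiments in opposite directions.

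The junction genes come first. Cldn5 encodes claudin 5, the main claudin of the tight junctions between brain endothelial cells. Its signal was 9.94, 10.27 and 9.72 in heterozygous mice of experiment 2, against 9.74, 9.89 and 9.92 in wild-type mice. The values in experiment 1 were 8.89, 9.00 and 8.90 in heterozygous mice, against 8.69, 8.54, 9.10 and 8.63 in wild-type mice. The genotypes overlapped in both experiments, in experiment 1 because wild-type replicate 3 lay above every heterozygous mouse. The difference over both experiments was 0.16 ± 0.10 (SE, n = 6 and 7; limma adjusted p = 0.989), with a 95% interval of -0.06 to 0.38. Leaving out 1 mouse at a time gave 0.10 (without heterozygous replicate 2 of experiment 2) to 0.22 (without that wild-type mouse), and leaving out the 3 arrays together gave 0.26.

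Esam encodes an adhesion molecule of the immunoglobulin family at endothelial junctions. It was 7.72 ± 0.27 in heterozygous and 7.78 ± 0.06 in wild-type mice of experiment 2 (SD, n = 3 each). In experiment 1 it was 8.20 ± 0.09 in heterozygous and 8.26 ± 0.17 in wild-type mice (SD, n = 3 and 4). Pecam1 encodes CD31, another junctional adhesion molecule of the same superfamily. Its means were 7.55 ± 0.06 and 7.58 ± 0.14 in heterozygous and wild-type mice of experiment 2 (SD, n = 3 each). In experiment 1 they were 7.82 ± 0.07 and 7.91 ± 0.20 (SD, n = 3 and 4). For both genes wild-type replicate 3 was the highest mouse of experiment 1, at 8.51 for Esam and 8.16 for Pecam1. Both differed by -0.06 over the experiments, with intervals of -0.25 to 0.12 for Esam and -0.22 to 0.10 for Pecam1. Emcn encodes endomucin, a sialoglycoprotein of the luminal surface of veins and capillaries. It differed by -0.01 ± 0.08 (SE; limma adjusted p = 0.997), with an interval of -0.18 to 0.17.

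Among the VEGF receptors, Kdr encodes VEGFR2, the main signalling receptor for VEGF-A. It was 7.60, 7.51 and 7.83 in heterozygous mice of experiment 2, against 7.53, 7.48 and 7.42 in wild-type mice. Those of experiment 1 were 7.83, 7.60 and 7.60 in heterozygous mice, against 7.60, 7.41, 7.54 and 7.83 in wild-type mice. A single wild-type value of experiment 2 reached into the heterozygous range, and in experiment 1 the highest value of each genotype was 7.83. The difference was 0.12 ± 0.08 (SE; limma unadjusted p = 0.132, the lowest of the 10, adjusted p = 0.989), with an interval of -0.04 to 0.29. It was 0.02 with the 3 arrays left out and 0.04 with array weights. Flt1 encodes VEGFR1, which binds VEGF-A tightly and signals weakly. It was 8.90 ± 0.12 in heterozygous and 8.76 ± 0.09 in wild-type mice of experiment 2 (SD, n = 3 each), and 9.40 ± 0.08 and 9.44 ± 0.08 in those of experiment 1 (SD, n = 3 and 4). Its difference of 0.04 had the smallest error of the 10 (SE 0.064; interval -0.10 to 0.18).

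Tek encodes TIE2, the receptor of the angiopoietins, and Tie1 encodes its related partner receptor, which forms complexes with it. Tek was 6.96, 7.15 and 7.38 in heterozygous mice of experiment 2, against 7.29, 7.41 and 6.99 in wild-type mice. In experiment 1 it was 7.95, 7.91 and 7.78 in heterozygous mice, against 7.87, 7.50, 7.28 and 7.74 in wild-type mice. Only wild-type replicate 1 of experiment 1 reached into the heterozygous range there. The genotype effect was -0.07 in experiment 2 and 0.29 in experiment 1, and the difference of these effects was -0.35 ± 0.22 (SE; limma adjusted p = 0.853). Over both experiments Tek differed by 0.12 (interval -0.13 to 0.37), by 0.06 without wild-type replicate 3 of experiment 1, and by -0.05 with the 3 arrays left out. Tie1 differed by 0.01 ± 0.07 (SE; interval -0.15 to 0.17).

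The transporters had the widest spread between mice. Abcb1a encodes P-glycoprotein, which pumps drugs and lipids back into the blood. It was 8.23, 8.58 and 8.47 in heterozygous mice of experiment 2, against 8.65, 8.05 and 8.40 in wild-type mice. Experiment 1 gave 9.08, 9.10 and 8.89 in heterozygous mice, against 9.10, 8.51, 8.54 and 8.77 in wild-type mice. A single wild-type mouse of experiment 1 lay within the heterozygous range, and the others lay below it. The difference was 0.18 ± 0.12 (SE; interval -0.07 to 0.44; limma adjusted p = 0.989), the largest of the 10 with all arrays at equal weight. It was 0.06 with the 3 arrays left out, where Cldn5 was at 0.26, and 0.19 with array weights, where Cldn5 was at 0.20. Abcb1b, a near copy of Abcb1a in the mouse, differed by 0.01 on its own probe set, and cross-hybridisation between them was not tested. Slco1a4 encodes an organic anion transporter that is one of a family of close copies. It was 7.86, 8.60 and 8.51 in heterozygous mice of experiment 2, against 8.27, 7.91 and 8.06 in wild-type mice. In experiment 1 it was 9.06, 9.04 and 8.97 in heterozygous mice, against 9.15, 8.83, 8.69 and 9.11 in wild-type mice. Heterozygous replicate 1 was the lowest mouse of experiment 2, and the other heterozygous mice were the highest. The difference was 0.15 ± 0.12 (SE; interval -0.11 to 0.42). It was 0.24 without heterozygous replicate 1 of experiment 2, 0.09 without heterozygous replicate 2 of that experiment, 0.06 with array weights and 0.02 with the 3 arrays left out. Within experiment 2 it was 0.24, and 0.10 to 0.47 with 1 mouse left out at a time (lowest limma adjusted p = 0.18).

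Within the experiments, 0 of the 10 genes passed in experiment 2 and 0 in experiment 1 with limma, where 0% of all probe sets passed in each (3235 and 976 had an unadjusted p under 0.05). None of the 10 had an unadjusted limma p under 0.05 in either, the lowest being 0.158 in experiment 2 and 0.0794 in experiment 1. The lowest was 0.0074 in experiment 2 with its heterozygous replicate 1 left out, and 0.0179 or 0.0295 in experiment 1 with its wild-type replicate 1 or 3 left out. With the 3 arrays left out it was 0.0376 in experiment 2 and 0.0389 in experiment 1, and none of these passed after adjustment. The genotypes did not separate for any of the 10 genes in either experiment, while 9.56% of all probe sets in experiment 2 and 6.12% in experiment 1 had groups that did not overlap (heterozygous higher in 4.65% and lower in 4.91% in experiment 2, higher in 3.66% and lower in 2.46% in experiment 1). The median difference of the 10 was 0.08 in experiment 2, against -0.004 over all probe sets, and 0.07 in experiment 1, against 0.011. In experiment 2 it was 0.03 without heterozygous replicate 2. In experiment 1 it was -0.02 with the 3 arrays left out, 0.01 with array weights, 0.02 when heterozygous replicate 1 or wild-type replicate 2 was left out, and 0.03 when wild-type replicate 3 was. Intervals were wider than over both experiments and ran from -0.41 to 0.64 in experiment 2 and from -0.34 to 0.65 in experiment 1. The genotype effects of the experiments differed for 0 of the 10 genes with limma (0% of all probe sets, 2016 with an unadjusted p under 0.05). These differences were -0.35 to 0.20, with none of the 10 at an unadjusted p under 0.05. Exact permutation p was at least 0.2 in experiment 2, where 0.1 is the smallest that 3 against 3 mice allow, and at least 0.143 in experiment 1, where 0.0286 is the smallest possible.

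**Figure D2:**
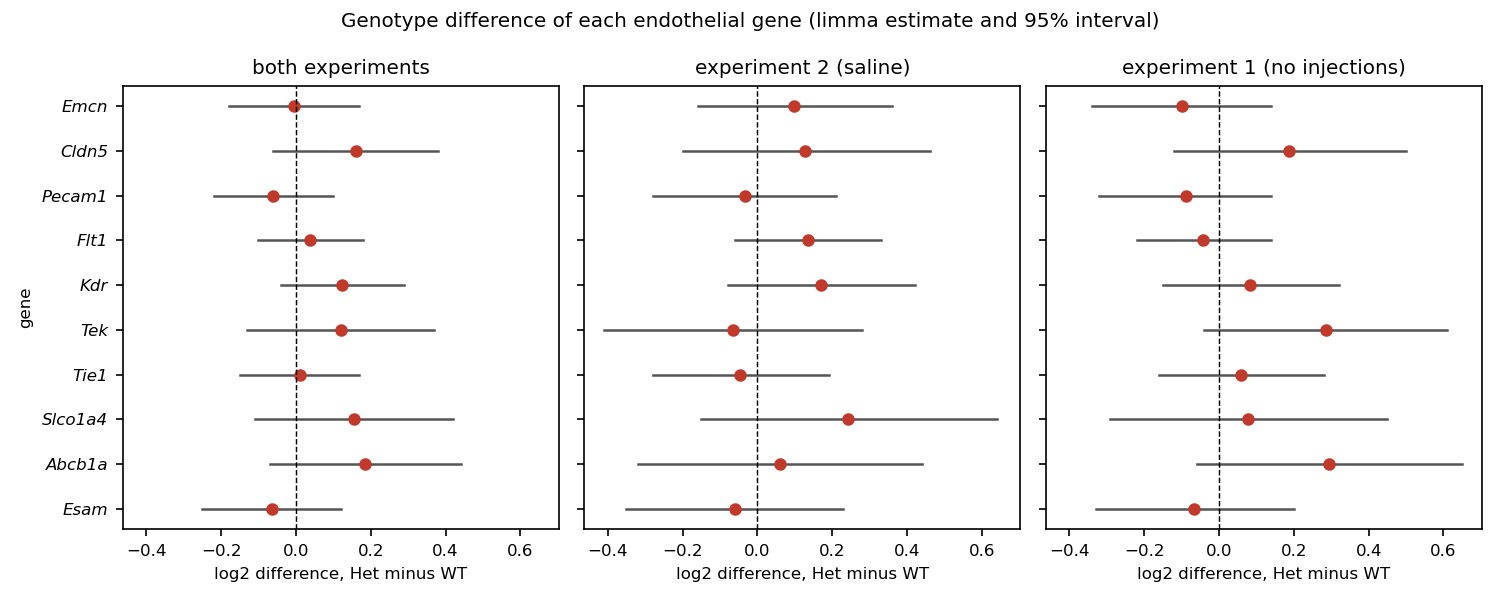
Difference between Kmt2d+/βGeo (Het) and wild-type (WT) mice in log2 units (x axis) for each endothelial gene (y axis), as limma estimates (points) with 95% intervals (lines), over both experiments and within each. Every interval includes 0, and the estimates over both experiments lie between -0.06 and 0.18.

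Further genes of vessels and of cells around them were read from 14 lists with 159 distinct measured genes. None of the 159 passed over all probe sets (limma, genotype over both experiments; 0% of probe sets). Of the 159, 14 had an unadjusted limma p under 0.05, against 1613 of all 35556 probe sets. The lists were chosen with earlier results of these data known, so the count of 14 is a description. Among 24 other endothelial genes, 12 were above 0 and 12 below, with a median of 0.00. Cyyr1, a membrane protein gene, was at 0.25 ± 0.10, the transcription factor gene Mecom at 0.14 ± 0.07 and Cdh5, which encodes VE-cadherin, at -0.21 ± 0.13 (SE; limma adjusted p = 0.989 for each). The list of VEGF and angiopoietin ligands, coreceptors and related genes had 12 measured genes, with a median of 0.01 and a range of -0.13 to 0.13. Among the related genes Angptl1 was at 0.13 and Svbp at -0.13, and the coreceptor Nrp1 was at 0.11. Vegfa itself was at 0.07 ± 0.07.

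Of 15 barrier transporters, 8 were above 0 and 7 below (median 0.01). Slc40a1, the iron exporter ferroportin, was at 0.28 ± 0.08, the organic anion transporter gene Slc22a8 at -0.19 ± 0.08 and Tfrc, the transferrin receptor, at 0.21 ± 0.10 (SE; limma adjusted p = 0.989 for each). The 13 genes of tight and adherens junctions had a median of 0.03, with the tricellular junction gene Marveld2 at 0.13 and the junction-associated gene Cgnl1 at -0.14. The 15 genes of Wnt and norrin signalling had a median of -0.01. Among them Axin2, a target of the pathway, was at -0.17, the ligand gene Wnt7a at -0.16 and the transcription factor gene Foxf2 at -0.10. The 14 arterial and venous genes had a median of -0.01, with the receptor gene Unc5b at -0.22, the arterial ligand gene Efnb2 at -0.23 and Gkn3 at -0.13. The 5 genes listed for fenestrated endothelium, which lines vessels without a barrier, had a median of 0.00. How far other cells contribute to their signal was not tested. Plvap, which encodes the diaphragm protein of the fenestrae, was at -0.06, Esm1 at 0.05 and Igfbp5 at -0.03.

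Lists of cells around the endothelium are given as counts, with no test between lists. Of 15 mural cell genes (pericytes and smooth muscle), 11 were below 0, with a median of -0.10, against 0.003 over all probe sets. Higd1b was at 0.11, and the list's median in experiment 1 was -0.01. The smooth muscle actin gene Acta2 was at -0.38 ± 0.17, the pericyte receptor gene Pdgfrb at -0.10 ± 0.06 and the desmin gene Des at -0.16 ± 0.09 (SE; limma adjusted p = 0.989 for each). Of 12 fibroblast genes of the meninges and vessel sheaths, 11 were below 0, with a median of -0.13. Col6a3, a collagen chain, was at -0.32 ± 0.06 (SE; limma adjusted p = 0.727), the proteoglycan gene Bgn at -0.33 and the procollagen enhancer gene Pcolce at -0.55. The mean of the fibroblast list was 7.88 to 8.10 in heterozygous and 7.94 to 8.36 in wild-type mice of experiment 2. In experiment 1 it was 8.10 to 8.47 in heterozygous and 7.94 to 8.67 in wild-type mice. The part of these cells in the endothelial values was not tested.

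Choroid plexus genes had a median of -0.22 over 9 genes, 0.38 in experiment 2 and -0.86 in experiment 1, with Clic6 at -0.71, Slc4a5 at -0.62 and Folr1 at -0.37 over both. The 3 measured blood cell genes had a median of -0.02, with Alas2 at -0.13, Epb42 at 0.05 and Slc4a1 at -0.02. Astrocyte endfoot genes had a median of 0.03 over 8 genes, the water channel gene Aqp4 being at 0.14, Mlc1 at 0.16 and Gja1 at 0.08. The 10 genes of microglia and perivascular macrophages had a median of 0.03, with Csf1r at -0.08, Cx3cr1 at 0.07 and F13a1 at 0.12. The 8 neuron genes had a median of 0.00, with Slc17a7 at 0.17, Gad2 at -0.23 and Gad1 at -0.14. Whether these cells contributed to the endothelial values was not tested.

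**Figure D3:**
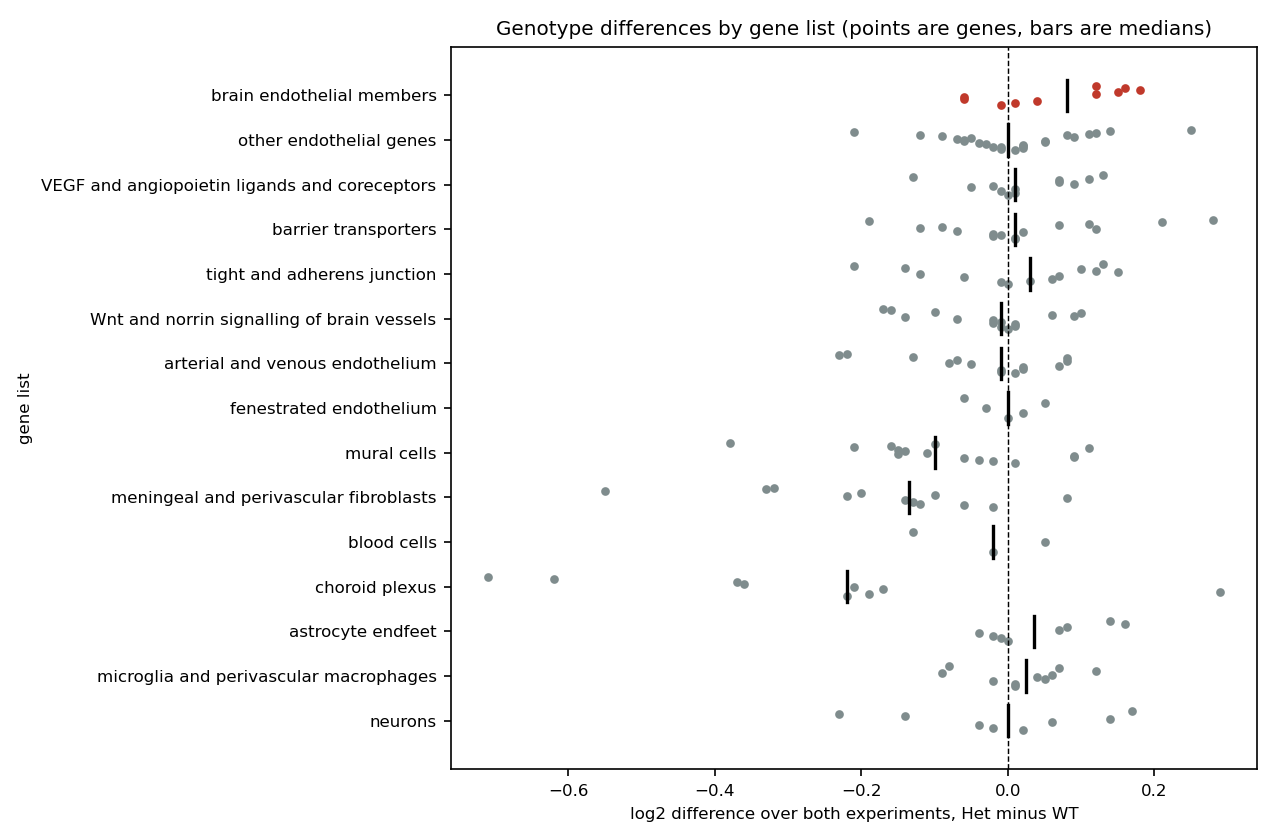
Log2 difference of Kmt2d+/βGeo (Het) minus wild-type (WT) mice over both experiments (x axis) for each gene of the endothelial set (red) and of 14 further lists (grey), by list (y axis), with list medians as black bars. The medians are 0.08 for the endothelial set (0.01 with the 3 arrays left out), 0.00 for other endothelial genes, -0.10 for mural cells, -0.13 for fibroblasts and -0.22 for choroid plexus, and no gene shown passed the test.

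Mice of a group differed among themselves by amounts near those of other probe sets. The pooled SD within groups was 0.09 for Flt1, 0.13 for Tie1, 0.14 for Kdr and Pecam1, 0.15 for Emcn, 0.17 for Esam, 0.20 for Cldn5 and 0.21 for Tek. It was 0.23 for Abcb1a and 0.25 for Slco1a4, against a median of 0.15 over all probe sets. In wild-type mice of experiment 1, replicate 3 was the highest mouse of that experiment for Emcn, Cldn5, Pecam1, Flt1 and Esam and the lowest for Tek and Slco1a4. Replicate 2 was the lowest for Emcn, Cldn5, Pecam1, Kdr, Tie1 and Abcb1a. The mean deviation of the 10 genes from their experiment's mean was -0.19 in replicate 2 and -0.03 to 0.09 on the other arrays of experiment 1. In experiment 2 it was -0.09 to 0.08.

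The endothelial genes were therefore set against each other across mice, within each experiment. Pearson's r was above 0 for 26 of 45 pairs in experiment 2 (n = 6, median 0.08, range -0.93 to 0.79) and for 30 in experiment 1 (n = 7, median 0.27, range -0.61 to 0.93). It was above 0 in both experiments for 14 pairs. None of the 90 relations had an adjusted p under 0.05 by exact permutation, the smallest being 0.101, while 2 and 9 were under it unadjusted in experiments 2 and 1. The 2 of experiment 2 were negative, Tie1 with Abcb1a (r = -0.93, exact permutation p = 0.00694, adjusted 0.156) and Cldn5 with Esam (r = -0.89, exact permutation p = 0.0194, adjusted 0.249). In experiment 1 these pairs had r = 0.85 (exact permutation p = 0.0147) and r = 0.67 (exact permutation p = 0.0821). In experiment 1, Emcn and Pecam1 had r = 0.88 (exact permutation p = 0.00218, adjusted 0.101) and rho = 0.96 (exact permutation p = 0.00278, adjusted 0.25), and r = 0.77 without the 2 mice farthest from the median of Emcn. The same pair had r = 0.17 and rho = 0.54 in experiment 2 (exact permutation p = 0.711 and 0.297). Tek and Abcb1a had r = 0.93 (exact permutation p = 0.00337, adjusted 0.101) and rho = 0.86 (exact permutation p = 0.0238) in experiment 1, and r = 0.92 without the 2 farthest mice. That pair had r = -0.02 (exact permutation p = 0.968) and rho = -0.03 in experiment 2, and r = -0.67 without the 2 farthest mice. Slco1a4 and Abcb1a, both transporters, had r = 0.79 (exact permutation p = 0.0653) and rho = 0.77 (exact permutation p = 0.103) in experiment 2 and r = 0.81 (exact permutation p = 0.0266) and rho = 0.61 (exact permutation p = 0.167) in experiment 1. Without the 2 mice farthest from the median of Slco1a4, r was 0.92 in experiment 2 and 0.13 in experiment 1. Leaving out the farthest mice also narrows the range of Slco1a4, so the fall in experiment 1 does not show what the relation rested on. Every r given without the 2 farthest mice rests on very few mice and was not tested.

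**Figure D4:**
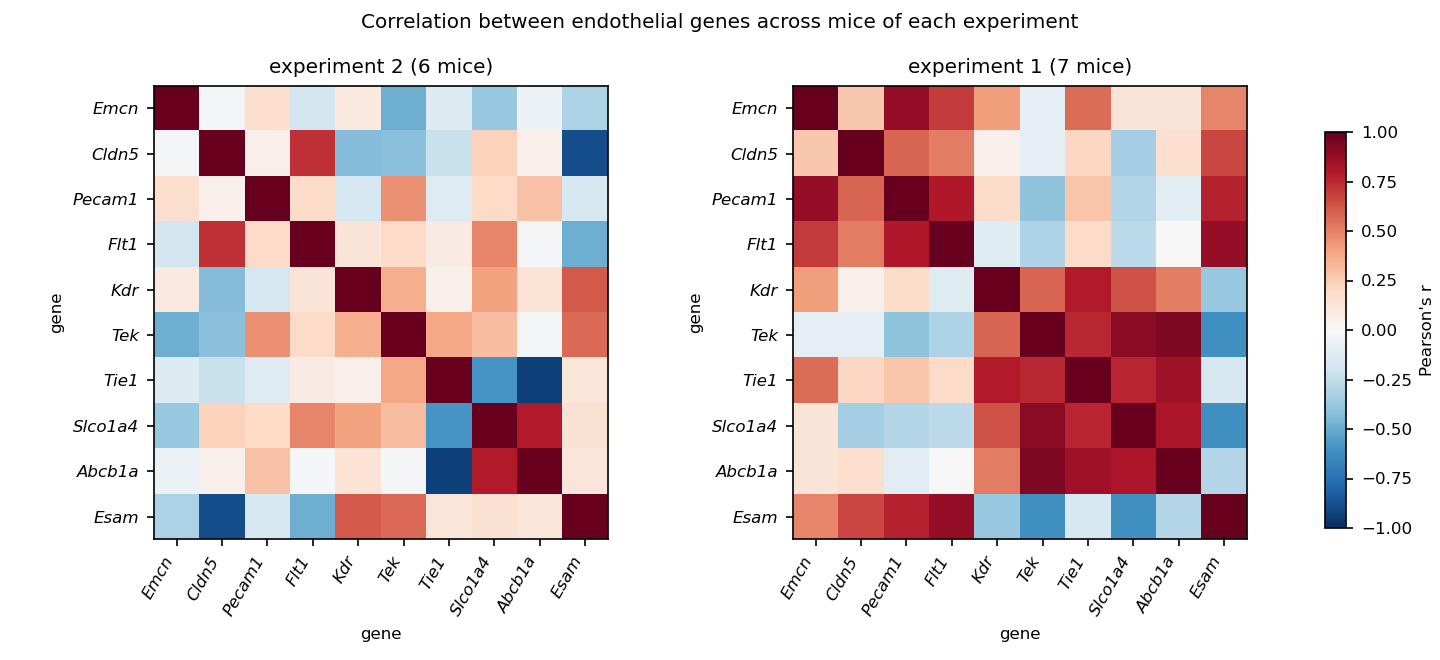
Pearson's r between endothelial genes (both axes) across the 6 mice of experiment 2 and the 7 mice of experiment 1, from -1 (blue) to 1 (red). Pairs range from -0.93 to 0.79 in experiment 2 and from -0.61 to 0.93 in experiment 1.

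As a description, genes outside the set were ranked by the smaller of their r with the mean of the 10 genes in the 2 experiments. The 5 most alike were Sqle, a cholesterol synthesis enzyme gene (r = 0.98 over the 6 mice of experiment 2 and 0.96 over the 7 of experiment 1), Utp6 (0.95 and 0.95), Mrpl39 (0.94 and 0.94), Pla2g7 (0.96 and 0.93) and Ro60 (0.98 and 0.93). The ranking ran over 21779 probe sets, and the values share the arrays and their normalisation. The 24 other endothelial genes had a median r with that mean of -0.51 in experiment 2 (5 of 24 above 0) and 0.28 in experiment 1 (17 of 24 above 0). Over all the ranked probe sets the medians were -0.13 and 0.13.

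The second comparison set experiment 2 against experiment 1, with genotype as a term. Of the 10 genes, 9 passed, 2 higher and 7 lower in experiment 2, at a limma adjusted p of 0.05. Of all probe sets 73.4% passed, 45.9% higher and 27.5% lower, so a call alone says little about these genes. The median of all probe sets was 0.148 log2 units higher in experiment 2, and the median of the 10 was -0.48. Relative to that shift of 0.148, Flt1 was at -0.74, Kdr at -0.22, Tek at -0.68, Tie1 at 0.15, Slco1a4 at -0.94, Abcb1a at -0.62, Esam at -0.63 and Pecam1 at -0.45. The size and sign of the shift depend on which probe sets are counted. With the dimmest 50% left out, all 10 genes remained and the median of all was -0.13. Of those 17778 probe sets, 5915 were called higher and 8418 lower. Against that median the falls would be smaller and the rises larger.

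Emcn fell most. It was 6.76, 6.43 and 6.38 in heterozygous and 6.54, 6.37 and 6.37 in wild-type mice of experiment 2, against 8.80, 8.70 and 8.64 in heterozygous and 8.90, 8.58, 8.92 and 8.85 in wild-type mice of experiment 1. The experiments were separated by far more than the spread within either. Emcn changed by -2.29 ± 0.08 (SE, n = 6 and 7; 4.9-fold lower; limma adjusted p = 4.3e-11), or -2.44 relative to the shift, and 0.667% of all probe sets had a difference as low or lower. The change was -2.19 in heterozygous and -2.39 in wild-type mice alone. In experiment 2 its signal lay below the array medians.

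Cldn5 rose by 1.08 ± 0.10 (SE; 2.12-fold; limma adjusted p = 4.56e-07), or 0.94 relative to the shift, and had 9.72 to 10.27 in experiment 2 against 8.54 to 9.10 in experiment 1. Of all probe sets, 93.8% had a difference at or below it. Tie1 was higher by 0.29 ± 0.07 (SE; limma adjusted p = 0.00249), but by 0.05 (limma adjusted p = 0.616) with each array centred on its median. Of all probe sets, 62.3% had a difference at or below that of Tie1. It ranged from 7.77 to 8.18 in experiment 2, against 7.46 to 7.72 in experiment 1. Tek, which encodes the partner receptor of Tie1, changed by -0.53 ± 0.12 (SE; limma adjusted p = 0.000963), with 6.96 to 7.41 in experiment 2 against 7.28 to 7.95 in experiment 1.

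Of the VEGF receptors, Flt1 fell by 0.60 ± 0.06 on the log2 scale (SE; 1.51-fold; limma adjusted p = 1.75e-06), by 0.84 with arrays centred on their medians and by 0.33 after quantile normalisation, with 8.71 to 9.04 in experiment 2 against 9.31 to 9.54 in experiment 1. Kdr was at -0.08 ± 0.08 (SE; interval -0.24 to 0.09; limma adjusted p = 0.38), and at -0.32 (limma adjusted p = 0.00536) with arrays centred on their medians. It ranged from 7.42 to 7.83 in experiment 2, against 7.41 to 7.83 in experiment 1. Vegfa, the ligand of both receptors, rose by 1.05 (limma adjusted p = 8.21e-09).

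The transporters were lower in experiment 2. Slco1a4 changed by -0.79 ± 0.12 (SE; limma adjusted p = 5.92e-05), with 7.86 to 8.60 in experiment 2 against 8.69 to 9.15 in experiment 1. Abcb1a changed by -0.47 ± 0.12 (SE; limma adjusted p = 0.00273), and by -0.28 (limma adjusted p = 0.0573) after quantile normalisation of the 13 arrays. The adhesion genes Esam (-0.48 ± 0.09) and Pecam1 (-0.30 ± 0.08) were also lower (SE; limma adjusted p = 0.000204 and 0.00254), and with arrays centred on their medians they were at -0.73 and -0.55. The values of the experiments did not overlap for 6 of the 10 genes (Emcn, Cldn5, Flt1, Tie1, Slco1a4 and Esam), 2 higher and 4 lower in experiment 2, against 49.2% of all probe sets (28.4% higher and 20.8% lower).

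**Figure D5:**
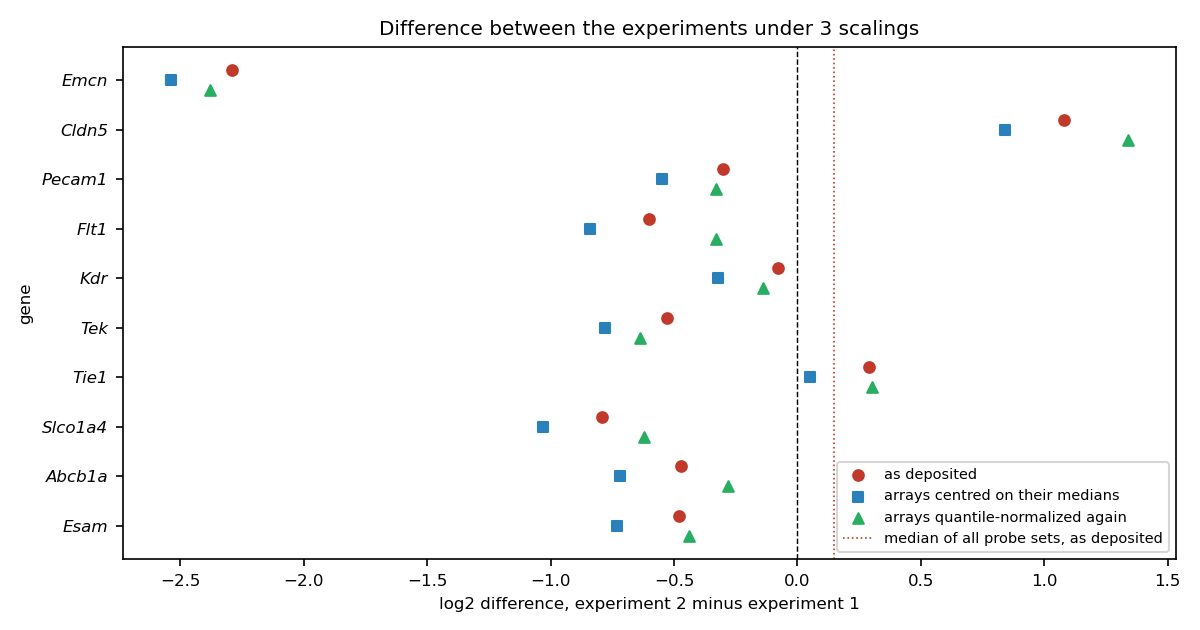
Log2 difference of experiment 2 minus experiment 1 (x axis) for each endothelial gene (y axis) with the values as deposited (red circles), with arrays centred on their medians (blue squares) and after quantile normalisation of all arrays (green triangles); the dotted line is the median of all probe sets as deposited, 0.148. Emcn lies at -2.54 to -2.29 and Cldn5 at 0.84 to 1.34 under the 3 scalings, and Tie1 is near 0 in 1 of them.

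The counts of other lists stand against 73.4% of all probe sets called, 45.9% higher and 27.5% lower in experiment 2. That split changes with the brightness of the probe sets counted, as given above. Of the 24 other endothelial genes, 7 were called higher and 9 lower in experiment 2, with a median of -0.04 and a range of -1.92 to 0.74. Cdh5 fell by 0.79, Cyyr1 by 1.07, and Mecom was at -0.06 (limma adjusted p = 0.455). Of the 15 barrier transporters, 1 was called higher and 10 lower (median -0.50), and Tfrc changed by -1.90. Of the 13 junction genes, 3 were called higher and 7 lower (median -0.78). Of the 14 arterial and venous genes, 7 were called higher and 2 lower (median 0.16), and of the 12 VEGF and angiopoietin genes, 5 higher and 3 lower (median 0.01). Of the 15 mural genes, 3 were called higher and 7 lower (median -0.16). Wnt and norrin signalling had 1 of 15 genes called higher and 9 lower (median -0.28). Fenestrated endothelium had 1 of 5 called higher and 1 lower (median -0.04). Among other cell types, 7 of 8 neuron genes (median -0.76) and 7 of 8 astrocyte endfoot genes (median -0.81) were called lower. Fibroblasts had 4 of 12 called higher and 5 lower (median -0.03). Choroid plexus had 0 of 9 called higher and 4 lower (median -0.75). Of the 10 genes of microglia and perivascular macrophages, 2 were called higher and 2 lower (median -0.01), and of the 3 blood cell genes, 2 were called higher (median 0.54). Whether other cell types contributed to the differences of the endothelial genes was not tested.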

How the data were processed

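RNA of 13 samples, each taken as a separate mouse, was measured on 13 arrays. Per the submitters' processing notes, the authors made the deposited log2 intensities by RMA with oligo. The sources used here do not give the version, the build, or whether all arrays were normalised together. RMA corrects background, equalises array distributions and combines probes by median polish, which can give equal values on several arrays. To 4 decimals, ties touched Kdr and Esam among the 10 genes, whose SDs can understate the spread. No per-sample column was left unused. Of 35556 probe sets, the platform annotation names 23410, of which 21789 have 1 symbol.

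All probe sets were fitted with limma 3.58.1 (R 4.3.3; statmod 1.5.0): genotype with experiment as a term, experiment with genotype as a term, and a model of the 4 groups for effects within experiments and their difference. p-values were two-sided and adjusted by Benjamini-Hochberg over all probe sets (threshold 0.05). Fitting was tested on simulated data. Exact permutation regrouped mice within experiments (700 regroupings over both, 20 in experiment 2, 35 in experiment 1). Where a list gene had several probe sets, that of highest mean was used. The labels number the samples of a group and do not say more of their source, so p-values measure the spread between these samples. Alternatives were other probe set choices, filters, scalings, variance priors, array weights, blocks and left-out arrays.

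The members and lists were chosen with earlier results of these data known. All 10 members are named, with up to 3 genes of lowest p per further list and the 5 most alike genes. Vegfa, Abcb1b and the pairs of correlated genes were added after their values were seen.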

Additional observations from a re-analysis of the deposited data

Results flagged for a closer look

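The mean of the fibroblast list (meninges and vessel sheaths) in wild-type mice of experiment 1 held a mouse far from the others. Replicate 2 was at 7.94 log2 units, against 8.59 to 8.67 in the other 3 mice, and its gap to the nearest was 0.896 of the group's range, above the 95% critical value of 0.829 for 4 samples. The same mouse had the lowest mean of the 10 endothelial genes in its experiment, a deviation of -0.19. The choroid plexus list of that mouse had a mean of 8.25, against 9.41 to 9.65 in the other 3. Its gap came very close to the critical value without passing it. In all, 25 gene and list values were examined in that group and 1 passed the critical value. Chance alone gives about 1 in 20, but these values share mice and are not independent. None of the 10 endothelial genes passed the critical value.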

How the results depend on the processing

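The call of 0 of 10 genes for each genotype effect, and for the difference of the effects, held under every alternative run. The count of 9 for the experiment effect was 7 to 10. Calls over all probe sets for the genotype effect were 0 over both experiments as reported and 1 with array weights. They were up to 12 in experiment 1 (array weights) and up to 19 in experiment 2 (without heterozygous replicate 1), against 0 as reported. For the experiment effect 62.5% of calls were higher as deposited, 37.6% with arrays centred and 49.2% after quantile normalisation.

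For the experiment effect, Kdr was called at -0.18 with the 3 arrays that stood apart left out. Tek (-0.37) and Abcb1a (-0.36) were not called in wild-type mice alone, nor Tie1 (0.24) in heterozygous mice alone. Some genotype estimates changed sign, none of them called, including Tek over both experiments (0.12 as reported), Cldn5 (0.13) and Emcn (0.10) in experiment 2 and Slco1a4 in experiment 1 (0.08). Over both experiments Emcn was at 0.0038 with centred arrays and 0.01 with the 3 arrays left out or with the replicate block. Tek was at -0.05 and Tie1 at -0.04 with the 3 arrays left out, and Tie1 at -0.0021 with array weights. In experiment 2 Pecam1 was at 0.03 with array weights. In experiment 1, with the 3 arrays left out, Kdr was at -0.04, Tie1 at -0.02, Slco1a4 at -0.11 and Esam at 0.01. The difference of effects was 0.0017 for Cldn5 with array weights, and for Esam -0.0033 with centred arrays, -0.01 after quantile normalisation, -0.11 with array weights and -0.22 with the 3 arrays left out. With single arrays left out, ranges over both experiments were -0.07 to 0.02 for Emcn and -0.02 to 0.07 for Tie1. In experiment 2 they were -0.02 to 0.17 for Emcn, -0.02 to 0.25 for Cldn5, -0.11 to 0.03 for Pecam1, -0.19 to 0.03 for Tek, -0.13 to 0.08 for Tie1, -0.10 to 0.20 for Abcb1a and -0.21 to 0.04 for Esam. In experiment 1 they were -0.01 to 0.15 for Slco1a4 and -0.12 to 0.01 for Esam. For the difference of effects they were -0.21 to 0.07 for Cldn5, -0.03 to 0.13 for Pecam1, -0.0028 to 0.16 for Kdr, -0.19 to 0.02 for Tie1 and -0.15 to 0.11 for Esam. The cause of these changes was not tested.

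Mice of the same replicate number did not deviate together (correlations of -0.15 to -0.01 in experiment 2 and -0.25 to 0.17 in experiment 1), so the numbers were not taken as pairs, and the replicate block left 0 of 10 genes called. The small number of arrays, 3 or 4 a group, limits these results, as does a signal below the array medians for Emcn in experiment 2.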
